A study of Mus musculus with 27 samples.

Results

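Prostaglandins are short-lived lipid signals made from arachidonic acid. The cyclooxygenases, Ptgs1 of many resting tissues and Ptgs2, which is mostly induced by stimulation, form their shared precursor, and terminal synthases turn it into prostaglandin E (Ptges, Ptges2 and Ptges3), prostaglandin D (Ptgds) or prostacyclin (Ptgis). Hpgd inactivates prostaglandins by oxidation, and the reductase Ptgr1 works on the product. These 9 genes of prostaglandin synthesis and breakdown were followed among 54532 genes counted in 27 libraries of mouse thyroid tissue cut out by laser capture microdissection. They were chosen by function, with their differences in counts between the 3 tissue groups known from earlier results of the same libraries and no cutoff on those values. The adjusted p-values given for them between tissue groups are therefore descriptions and not independent support.

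The libraries formed 3 groups of 9, each from 6 female and 3 male mice. NCT was normal thyroid of mice that had not been exposed. NT was thyroid of normal appearance from exposed mice, next to abnormal tissue, and PL was proliferative lesion tissue of those same mice, so that NT and PL libraries of 1 number belong to 1 mouse. The series title names the exposure as radiation. Dose, strain, genotype and age are not in the labels used here. Every exposed mouse here bore a lesion, so exposure and the presence of a lesion cannot be told apart in NT against NCT, nor exposure and lesion tissue in PL against NCT. Libraries of transcript 3′ ends held between 2923851 and 14148601 counts. Tg, which encodes thyroglobulin and defines follicular cells, was at 9736 to 60592 CPM (counts scaled to the size of the library) in all 27 libraries.

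The start regions of Ptgs1, Ptgs2 and Ptgds are shown because the cyclooxygenase and prostaglandin D synthase genes had the largest lesion differences among the 9 genes. Each sequence holds 300 bases of RefSeq on GRCm38.p6, 250 before the annotated start and 50 from it onward, and capitals mark matches to 6 short motifs searched on both strands.
Ptgs1, chr2:36230176-36230475, plus strand: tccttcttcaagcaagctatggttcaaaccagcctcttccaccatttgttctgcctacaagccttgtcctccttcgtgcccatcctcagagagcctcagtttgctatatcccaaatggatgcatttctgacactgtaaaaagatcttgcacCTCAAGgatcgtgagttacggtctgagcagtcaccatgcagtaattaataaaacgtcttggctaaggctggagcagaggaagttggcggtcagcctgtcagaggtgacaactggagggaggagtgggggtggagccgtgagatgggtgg
Ptgs2, chr1:150099781-150100080, plus strand: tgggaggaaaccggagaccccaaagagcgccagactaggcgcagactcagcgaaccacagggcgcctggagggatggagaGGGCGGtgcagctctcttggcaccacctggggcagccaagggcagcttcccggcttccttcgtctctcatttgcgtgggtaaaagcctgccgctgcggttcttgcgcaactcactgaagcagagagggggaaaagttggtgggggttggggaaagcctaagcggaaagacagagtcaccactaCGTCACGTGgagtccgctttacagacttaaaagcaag
Ptgds, chr2:25469700-25469999, minus strand: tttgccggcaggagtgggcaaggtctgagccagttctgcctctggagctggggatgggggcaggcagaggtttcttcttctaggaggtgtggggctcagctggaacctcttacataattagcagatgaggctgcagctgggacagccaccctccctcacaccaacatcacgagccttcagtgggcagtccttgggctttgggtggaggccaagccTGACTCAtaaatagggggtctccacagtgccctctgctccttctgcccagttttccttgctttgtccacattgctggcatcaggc
The motifs were the TATA box TATAAA, the cyclic AMP response half-site CGTCA, the E-box CACGTG, the GC box GGGCGG, the AP-1 site TGANTCA and CTCAAG, a form of the core bound by the thyroid factor NKX2-1. Positions count the annotated RefSeq start as 1, and where transcription begins in these tissues was not tested. The Ptgs2 region held a half-site beginning at 14 that overlaps an E-box beginning at 17, and a GC box at -170. The Ptgs1 region held CTCAAG at -99 and the Ptgds region an AP-1 site at -35, and neither held another of the 6. The Ptgds window lies wholly inside the gene span of 25466709 to 25470046 on the minus strand in GENCODE M21. Its RefSeq start, and positions counted from it, therefore differ from that annotation. Among 32851 start regions of the same length, 20.8% held the half-site, 7.15% the E-box, 35.7% the GC box, 15.9% CTCAAG, 7.81% the AP-1 site and 13.6% the TATA box. A match describes letters in a window and not a bound site. Start regions were matched for 8 of the 9 genes.

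In lesions, Ptgs1 was the member with the clearest difference. It stood at a mean of 192 ± 83.6 CPM (SD, n = 9) in PL, against 46.5 ± 25.0 in NT and 29.3 ± 12.8 in NCT. Ptgs2 and Ptgds differed in opposite directions by similar folds but with more spread between mice, and the 3 prostaglandin E synthases and both breakdown genes lay within 2 SE of no difference between PL and NT. Of the 9 members, 1 rose and 0 fell in PL against NT by edgeR's quasi-likelihood test with Benjamini-Hochberg adjustment over all genes, where 3.08% of 14461 genes tested were called, 1.76% higher and 1.31% lower. With a median log2 fold change of 0.13 over the 9 members and 0.00 over all genes, the members had no common direction, 5 of 9 being above 0. DESeq2's Wald test called 4 of the 9, Ptgs1 and Ptgs2 as higher and Ptgds and Ptgis as lower, where it called 8.89% of the genes tested, 4.11% higher and 4.78% lower.

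Ptgs1 (ENSMUSG00000047250, chromosome 2, 36230426 to 36252272, plus strand) had its lowest, median and highest level at 17.2, 25.1 and 58.5 CPM in NCT and at 13.8, 47.0 and 89.3 CPM in NT. The PL libraries ran from 80.2 CPM in mouse 9 through a median of 185 CPM to 377 CPM in mouse 8. PL and NCT did not overlap, and 8 of 9 PL libraries were above the highest NT library, that of mouse 6. The share of all genes whose groups did not overlap was not counted, here or for the genes below. Within mice the lesion was the higher in 9 of 9, with a ratio of PL to NT from 2.08 in mouse 6 to 17.8 in mouse 7 and a median of 3.19. The NT library of mouse 7 had the lowest Ptgs1 of NT, at 13.8 CPM. It also held 18232 CPM of the parathyroid gene Pth and 5896 CPM of the airway gene Bpifa1, whose bearing on the ratio was not tested. In the fit that pairs the mice the log2 fold change was 2.10 (SE 0.35, edgeR adjusted p = 0.0163). It was 2.70 in PL against NCT (SE 0.27, edgeR adjusted p = 5.23e-06) and 0.67 in NT against NCT (SE 0.32, edgeR adjusted p = 0.435). The value for PL against NT ranged from 1.88 to 2.24 over 9 fits that each left out 1 mouse, all of them called. With the 6 female mice alone it was 2.17 (edgeR adjusted p = 0.147), without mice 7 to 9 it was 1.69 (edgeR adjusted p = 0.0645), and without the mice whose library held over 2000 CPM of the parathyroid gene Pth it was 2.04 (edgeR adjusted p = 0.0505).

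These are bulk libraries, in which fewer cells of a type and less RNA per cell cannot be told apart. Platelets carry Ptgs1, and the platelet genes Ppbp and Pf4 were at 0 to 4.09 and 7.59 to 44.1 CPM in PL against 0.132 to 3.11 and 17.3 to 51.8 CPM in NT. The mast cell gene Cpa3 was at 0 to 6.01 CPM in PL and 0 to 7.94 CPM in NT. The 8 follicular markers summed to 12725 to 36635 CPM in PL, 13574 to 42899 CPM in NT and 27941 to 63154 CPM in NCT, while 1 of the 8 rose in PL against NT. Their part in the Ptgs1 difference was not tested.

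Ptgs2 (ENSMUSG00000032487, chromosome 1, 150100031 to 150108227, plus strand) was sparse, at 0 to 4.98 CPM in NCT with a median of 0.910, 0 to 2.45 CPM in NT with a median of 0.717, and 0.370 to 13.1 CPM in PL with a median of 4.0. It had 5 to 69 counts in a PL library and none in 2 NCT libraries and 1 NT library, and 3 counts amount to 0.20 to 1.35 CPM depending on the library. Mouse 4 and mouse 3 had the highest lesions, at 13.1 and 8.58 CPM, and 6 of 9 PL libraries were above all NT libraries. The lesion was the higher in 8 of 9 mice, mouse 5 being the exception. The log2 fold change in PL against NT was 1.91 (SE 0.57, edgeR adjusted p = 0.0817), short of the threshold of 0.05, and DESeq2's Wald test gave an adjusted p of 0.00474. Ptgs2 did not pass the filter on low counts in PL against NCT and NT against NCT. Without that filter it was 1.60 in PL against NCT (SE 0.71, edgeR adjusted p = 0.185) and -0.36 in NT against NCT (SE 0.74, edgeR adjusted p = 0.864). Of the 3′ tag counts of both cyclooxygenases, Ptgs1 supplied 90.6% to 100% in a library, with a median of 98.2% over the 27 and of 98.4% in PL.

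**Figure D1:**
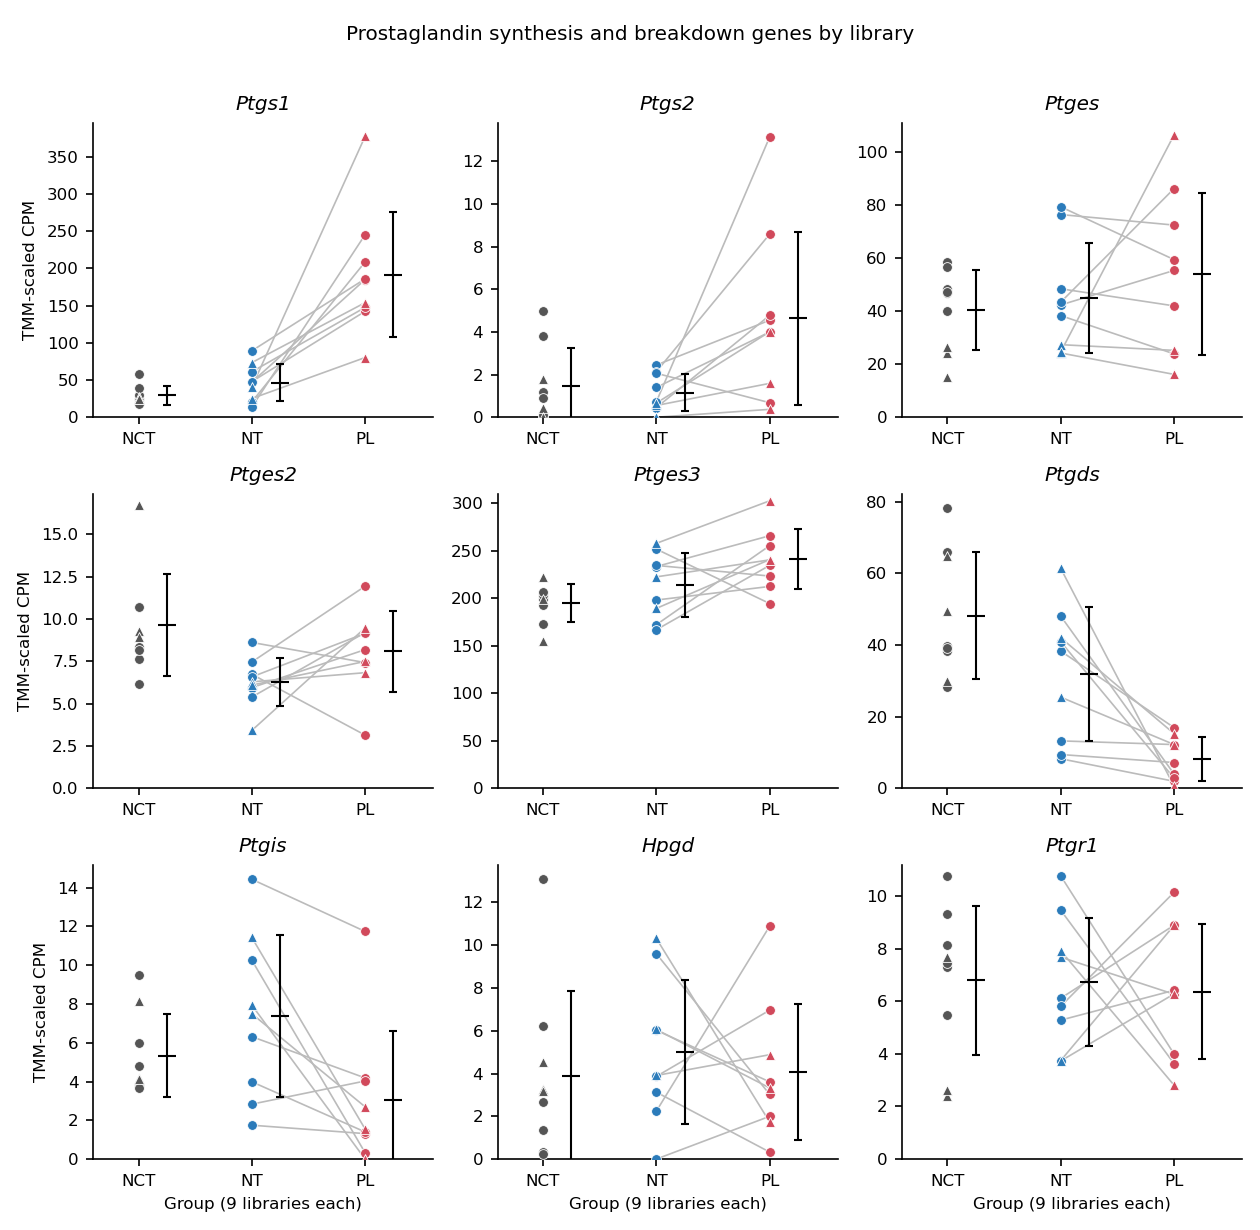
Level in CPM (TMM-scaled, 1 panel and 1 linear scale for each gene) of the 9 genes in every NCT, NT and PL library; circles are females, triangles males, grey lines join NT and PL of 1 mouse, and black marks give mean ± SD, with lower bars cut at 0. Ptgs1 is higher in the lesion in 9 of 9 mice and Ptgds lower in 9 of 9.

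The prostaglandin D synthase Ptgds (ENSMUSG00000015090, chromosome 2, 25466709 to 25470046, minus strand) was lower in PL than in both normal groups by its mean, at 8.10 ± 6.15 CPM in PL, 31.9 ± 18.7 in NT and 48.2 ± 17.7 in NCT (SD, n = 9 each). Its lowest, median and highest levels were 28.1, 39.6 and 78.3 CPM in NCT, 8.21, 38.3 and 61.3 CPM in NT, and 0.591, 7.16 and 16.9 CPM in PL. All 9 PL libraries lay below all NCT libraries, whereas NT split, with mice 1, 6 and 4 at 8.21, 9.39 and 13.2 CPM and the other 6 at 25.4 CPM or more. The lesion was the lower in 9 of 9 mice, with a ratio of PL to NT from 0.00964 in mouse 9 to 0.922 in mouse 4. The NT library of mouse 9 had the highest Ptgds of NT, at 61.3 CPM. It also held 25924 CPM of Pth, whose bearing on the ratio was not tested. Ptgds fell in PL against NCT, by 2.6 on the log2 scale (SE 0.48, edgeR adjusted p = 0.00218, called in 18 of 18 fits that left out 1 library), where 10.1% of 14234 genes were called, 5.45% higher and 4.62% lower, and where it and Ptgs1 were the 2 members called of 8 tested. The log2 difference was -2.04 in PL against NT (SE 0.63, edgeR adjusted p = 0.120; 0.0725 to 0.268 when 1 mouse was left out) and -0.59 in NT against NCT (SE 0.35, edgeR adjusted p = 0.541). DESeq2's Wald test gave an adjusted p of 0.00659 for PL against NT.

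The prostacyclin synthase Ptgis was at 3.64 to 9.51 CPM in NCT, 1.75 to 14.4 CPM in NT and 0 to 11.7 CPM in PL, with medians of 4.19, 7.49 and 1.55 CPM. Of its PL libraries 6 of 9 were below the lowest NCT library, and that of mouse 5 was the highest. Mouse 6 alone had more in the lesion than beside it. The log2 fold change in PL against NT was -1.63 (SE 0.61, edgeR adjusted p = 0.168; 0.0147 by DESeq2's Wald test), and in PL against NCT it was -0.81 (SE 0.55, edgeR adjusted p = 0.398). Across the 27 libraries Ptgds and Ptgis had a Spearman correlation of 0.50, and Ptgds and Ptgs1 of -0.77, which describe libraries that share their groups.

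Ptgds and Ptgis are made by stromal cells in many tissues, and stromal and other non-follicular markers also differed. The 7 fibroblast markers summed to 1832 to 3070 CPM in NCT, 1364 to 3598 CPM in NT and 583 to 3223 CPM in PL. All 7 had a log2 fold change below 0 in PL against NT (median -1.05, 0 called). Of them 4 had an unadjusted p under 0.05 there, as had 2552 of all 14461 genes. In PL against NCT 3 of 7 fell, Dcn and Lum among them, and 2 of 7 had a log2 fold change above 0. Col1a1, the first of the list, was at 170 ± 23.2, 183 ± 48.9 and 176 ± 102 CPM in NCT, NT and PL (SD, n = 9 each). Airway and squamous markers summed to 364 to 5350 CPM in NCT, 120 to 6511 CPM in NT and 26.9 to 473 CPM in PL, and 6 of 10 fell in PL against NT. Of 6 C cell markers, 4 fell in PL against NT. Among 6 endothelial markers 0 had a log2 fold change above 0 there (median -0.32, 0 called), and 3 had an unadjusted p under 0.05. Pericyte and smooth muscle markers had 2 of 6 above 0 (median -0.07, 0 called). The adipocyte sum was 215 to 1784 CPM in NCT, 38.3 to 274 CPM in NT and 5.18 to 425 CPM in PL. The part of these cells in the Ptgds and Ptgis differences was not tested.

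**Figure D2:**
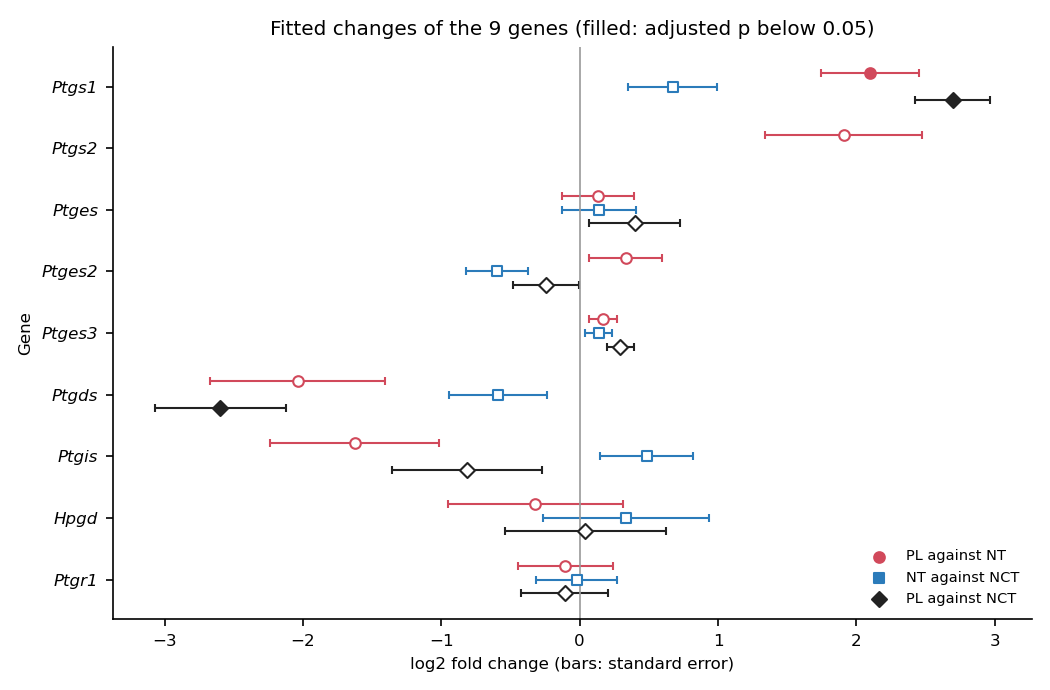
Log2 fold change ± SE of each gene in PL against NT, NT against NCT and PL against NCT (edgeR); filled points have an adjusted p under 0.05. Ptgs1 is filled in both comparisons of PL and Ptgds in PL against NCT; Ptgs2 was tested in PL against NT alone.

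The prostaglandin E synthases did not pass the main edgeR test in any comparison of tissue groups. Ptges, the inducible membrane enzyme (ENSMUSG00000050737, chromosome 2, 30889471 to 30929863, minus strand), had means of 40.5 ± 15.1, 45.0 ± 20.6 and 54.2 ± 30.6 CPM in NCT, NT and PL (SD, n = 9 each), with 3 of 9 mice higher in the lesion. Its fold change in PL against NT was 0.13 on the log2 scale (SE 0.26, edgeR adjusted p = 0.845), and it was -0.09 without mouse 9, whose lesion had 107 CPM against 24.7 CPM in NT. Ptges2, the second membrane-bound form, was at 9.62 ± 3.02, 6.27 ± 1.43 and 8.09 ± 2.40 CPM and was the 1 member at an unadjusted p under 0.05 in NT against NCT (log2 fold change -0.60, SE 0.22, edgeR adjusted p = 0.301). In that comparison 1673 of all 14447 genes had an unadjusted p under 0.05. All 9 NT libraries were at or below the NCT median for Ptges2, with 4 below the lowest NCT library. Ptges3, the cytosolic form that is also a cochaperone of Hsp90, had 195 ± 19.8, 214 ± 33.6 and 241 ± 31.5 CPM, and its log2 fold change was 0.29 in PL against NCT (SE 0.10, edgeR adjusted p = 0.0548) and 0.17 in PL against NT (SE 0.10, edgeR adjusted p = 0.411). DESeq2's Wald test, which called 13.1% of genes in PL against NCT, gave an adjusted p of 0.0305 for Ptges3 there. In the same comparison edgeR called Ptges3 in 3 of 18 fits that left out 1 library (lowest adjusted p 0.0366). It also called Ptges3 there with all 27 libraries in 1 fit. A processed pseudogene, Ptges3-ps, held 258 counts beside 41130 of Ptges3, and reads of the 2 could have been split.

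Neither breakdown gene passed the test between tissue groups. Hpgd (chromosome 8, 56294585 to 56321043, plus strand) ranged from 0.228 to 13.1 CPM in NCT, 0 to 10.3 CPM in NT and 0.330 to 10.9 CPM in PL, and 4 of 9 mice had more in the lesion. Its log2 fold change in PL against NT was -0.32 with an SE of 0.63 (edgeR adjusted p = 0.846), a precision that leaves room for differences of either sign. Ptgr1 (chromosome 4, 58965439 to 58987119, minus strand) was at 6.79 ± 2.82, 6.72 ± 2.43 and 6.37 ± 2.57 CPM in NCT, NT and PL, and its log2 fold change in PL against NT was -0.10 (SE 0.35, edgeR adjusted p = 0.915). In NT against NCT, 0 of 8 members tested were called by edgeR and 0 by DESeq2's Wald test. An unadjusted p under 0.05 was found for 1 of the 8, beside 1673 of all 14447 genes. By edgeR 0.0277% of 14447 genes were called, 0.00692% higher and 0.0208% lower, and by DESeq2's Wald test 0.928%.

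By mean level over the 27 libraries, as CPM of 3′ tags that are not scaled to length, Ptges3 came first at 216 ± 33.9 CPM, then Ptgs1 at 89.2 ± 89.0, Ptges at 46.6 ± 22.9 and Ptgds at 29.4 ± 22.3. Ptges2 at 7.99 ± 2.67, Ptgr1 at 6.63 ± 2.52, Ptgis at 5.24 ± 3.74, Hpgd at 4.33 ± 3.42 and Ptgs2 at 2.42 ± 2.97 CPM followed. Ptges3 and Ptgs1 differed by more than either SD, and every other pair of neighbours in this order by less than the larger of their SDs. The place of Ptgs1 came from PL, at 192 CPM, since in NCT its mean of 29.3 ± 12.8 CPM was below those of Ptgds and Ptges. In NCT the mean of Ptgds was above that of Ptges by less than either SD, at 48.2 ± 17.7 against 40.5 ± 15.1 CPM, and in PL it was below, at 8.10 ± 6.15 against 54.2 ± 30.6 CPM.

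Sex is a label that the choice of genes did not use, and it separated Ptges. In the 18 normal-tissue libraries, with the tissue group as covariate, Ptges fell by 1.13 on the log2 scale in males against females (SE 0.17, edgeR adjusted p = 0.000966). It was the 1 member of 9 called, and 0.172% of 15726 genes were called, 0.0382% higher and 0.134% lower in males. In NCT the 6 females were at 40.1 to 58.6 CPM and the 3 males at 15.4 to 26.7 CPM. In NT the females were at 38.4 to 79.4 CPM and the males at 24.2 to 27.4 CPM. The sexes did not overlap in either group, and the means were 49.7 ± 6.87 against 22.1 ± 5.97 CPM in NCT and 54.8 ± 18.3 against 25.4 ± 1.71 CPM in NT (SD, n = 6 females and 3 males each). How many of all genes separate 3 males from 6 females in this way was not counted. The call held in 18 of 18 fits that each left out 1 library, from -1.20 to -1.05, and without the Pth-rich libraries.

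Within NCT or NT alone the value was similar and did not pass the test. The log2 difference was -1.15 with NCT alone (edgeR adjusted p = 0.0536) and -1.12 with NT alone (edgeR adjusted p = 0.890). The first digits of the mouse numbers form series that are uneven between the sexes, and what a series stands for is not in the labels. With the 3 series that hold both NCT and NT, and series as a covariate, the difference was -0.98 (edgeR adjusted p = 0.370), and 1 of these series held males alone. The number of NCT library 4, a female, differs between its title and its other label; with the title's number a further series would hold both NCT and NT, and that fit was not run. In the series with the most males, the females were at 40.1, 43.4 and 79.4 CPM and the males at 24.2, 26.7 and 27.4 CPM, without overlap. These restrictions were chosen after the data had been seen. In lesions the males of mice 2 and 8 were at 16.2 and 25.2 CPM and the male of mouse 9 at 107 CPM, above all 6 females, who ran from 23.9 to 86.3 CPM, so the sexes overlapped there. The difference in lesions was -0.21 (edgeR adjusted p = 1.0), and the interaction of tissue with sex was 0.47 (SE 0.57, edgeR adjusted p = 1.0). In that interaction test 0 of 9 members passed, 0 of them at an unadjusted p under 0.05, and 0% of 14461 genes were called by edgeR, with 401 at an unadjusted p under 0.05. DESeq2 was not run on it. With simulated counts the same edgeR test recovered 5% of log2 differences of 1.5 and 40% of those of 2.5. The lack of calls therefore does not show that the lesion difference was alike in both sexes. Marker lists differed by sex as well, with 0 genes called in each list named here. In males against females, 9 of 10 airway and squamous markers were above 0 (median 1.31). So were 7 of 7 adipocyte markers (median 0.59) and 6 of 6 pericyte and smooth muscle markers (median 0.23). Above 0 were 1 of 7 macrophage markers (median -0.44), 0 of 8 follicular markers (median -0.38) and 0 of 4 T and NK cell markers (median -0.70). Macrophages can make Ptges, and the part of any of these cells in the result was not tested. Of the other 8 members, Ptgs2 had the smallest p by sex, at -1.59 in males against females (SE 0.85, edgeR adjusted p = 0.812), and Ptgs1 was at -0.15 (SE 0.35, edgeR adjusted p = 0.984).

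**Figure D3:**
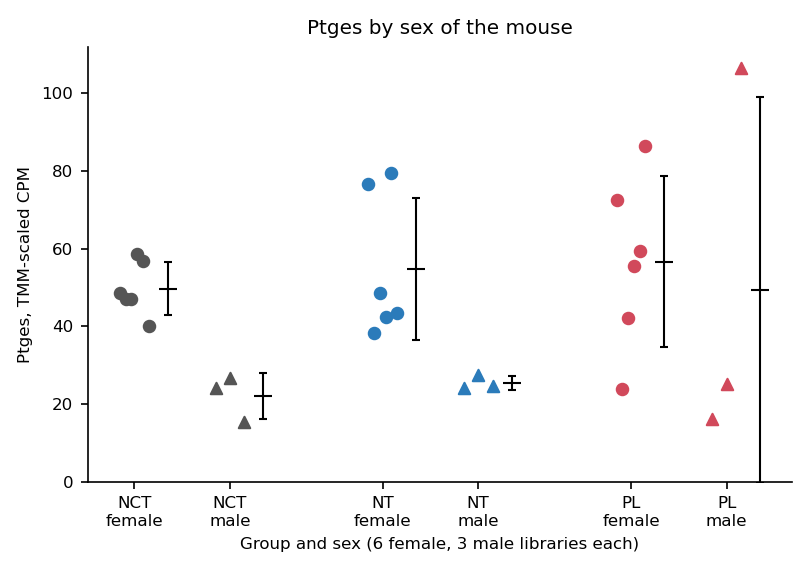
Ptges in CPM for every library by tissue group and sex, with mean ± SD (n = 6 females and 3 males in a group). Male values in NCT and NT stay between 15.4 and 27.4 CPM, below all females of those groups, and 1 male lesion is at 107 CPM.

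The rest of the pathway was read from 37 genes in 5 lists: release of arachidonate, other terminal enzymes, receptors, transport with other breakdown, and the lipoxygenase and leukotriene branch. In PL against NT, 27 were tested and 0 were called by edgeR. An unadjusted p under 0.05 was found for 5 of the 27, beside 2552 of all 14461 genes. DESeq2's Wald test called 3, Ptgdr as higher and Alox5 and Pla2g2d as lower, beside the 4.11% and 4.78% of all genes it called in those directions. In PL against NCT, 2 of 26 rose and 0 fell by edgeR, beside 5.45% and 4.62% of all genes, so the share was near the background. In NT against NCT 0 of 27 were called by edgeR and 1, Akr1b3, by DESeq2's Wald test. There 3 of 27 had an unadjusted p under 0.05, beside 1673 of all 14447 genes. The median log2 fold changes were -0.03, -0.08 and 0.01 in PL against NT, PL against NCT and NT against NCT, near those of all genes.

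Ptgdr, a receptor of prostaglandin D, rose in PL against NCT, with a log2 fold change of 3.10 (SE 0.74, edgeR adjusted p = 0.0113). Its levels were 0 to 4.78 CPM in NCT, 0.20 to 5.29 CPM in NT and 0.148 to 37.0 CPM in PL. The lesions of mice 7 and 9 were at 2.80 and 0.148 CPM and the other 7 at 7.78 CPM or more, above all libraries of NT and NCT. In PL against NT it was 2.62 (SE 0.64, edgeR adjusted p = 0.0503), at the edge of the threshold, with 7 of 9 mice higher in the lesion. The call in PL against NCT held in 18 of 18 fits that left out 1 library.

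Akr1b3, an aldo-keto reductase that can form prostaglandin F, rose in PL against NCT by a small amount, 0.36 on the log2 scale (SE 0.12, edgeR adjusted p = 0.0461), a call lost in 13 of 18 fits that left out 1 library. Its NCT libraries were at 45.5 to 56.9 CPM, its NT libraries at 56.9 to 84.6 CPM and its PL libraries at 51.7 to 90.1 CPM. NT and NCT met at 56.9 CPM without overlapping, and the log2 fold change between them was 0.43 (SE 0.10, edgeR adjusted p = 0.114). Of the genes that release arachidonate, the secreted phospholipase Pla2g2d had the smallest p in PL against NT, at -1.46 (SE 0.41, edgeR adjusted p = 0.0841) and lower in 8 of 9 mice. Alox5, the lipoxygenase that opens the leukotriene branch, was lower in 9 of 9 lesions, at -1.01 (SE 0.35, edgeR adjusted p = 0.131), and at -1.18 in PL against NCT (SE 0.39, edgeR adjusted p = 0.0536). The thromboxane synthase Tbxas1, at -0.64 (edgeR adjusted p = 0.563), and the exporter Abcc4, at -0.39 (edgeR adjusted p = 0.274), had the smallest p of their lists in PL against NT. Pla2g2d, Alox5 and Tbxas1 are genes of myeloid cells in many tissues, and the 7 macrophage markers summed to 252 to 1092 CPM in NT and 146 to 640 CPM in PL, with 1 of 7 lower by the test. Their part in these differences was not tested.

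In NT against NCT the smallest p-values of the other lists were those of Ptgfr, the prostaglandin F receptor, at -1.16 (edgeR adjusted p = 0.378), the phospholipase Pla2g5 at -0.36 (edgeR adjusted p = 0.410), the reductase Zadh2 at -0.31 (edgeR adjusted p = 0.463) and Alox5ap, the partner of Alox5, at 0.36 (edgeR adjusted p = 0.509). By sex, 0 of 28 pathway genes were called by edgeR and 4 had an unadjusted p under 0.05, beside 1024 of all 15726 genes. The cytosolic phospholipase Pla2g4a had the smallest p, at -0.70 in males against females (edgeR adjusted p = 0.333).

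**Figure D4:**
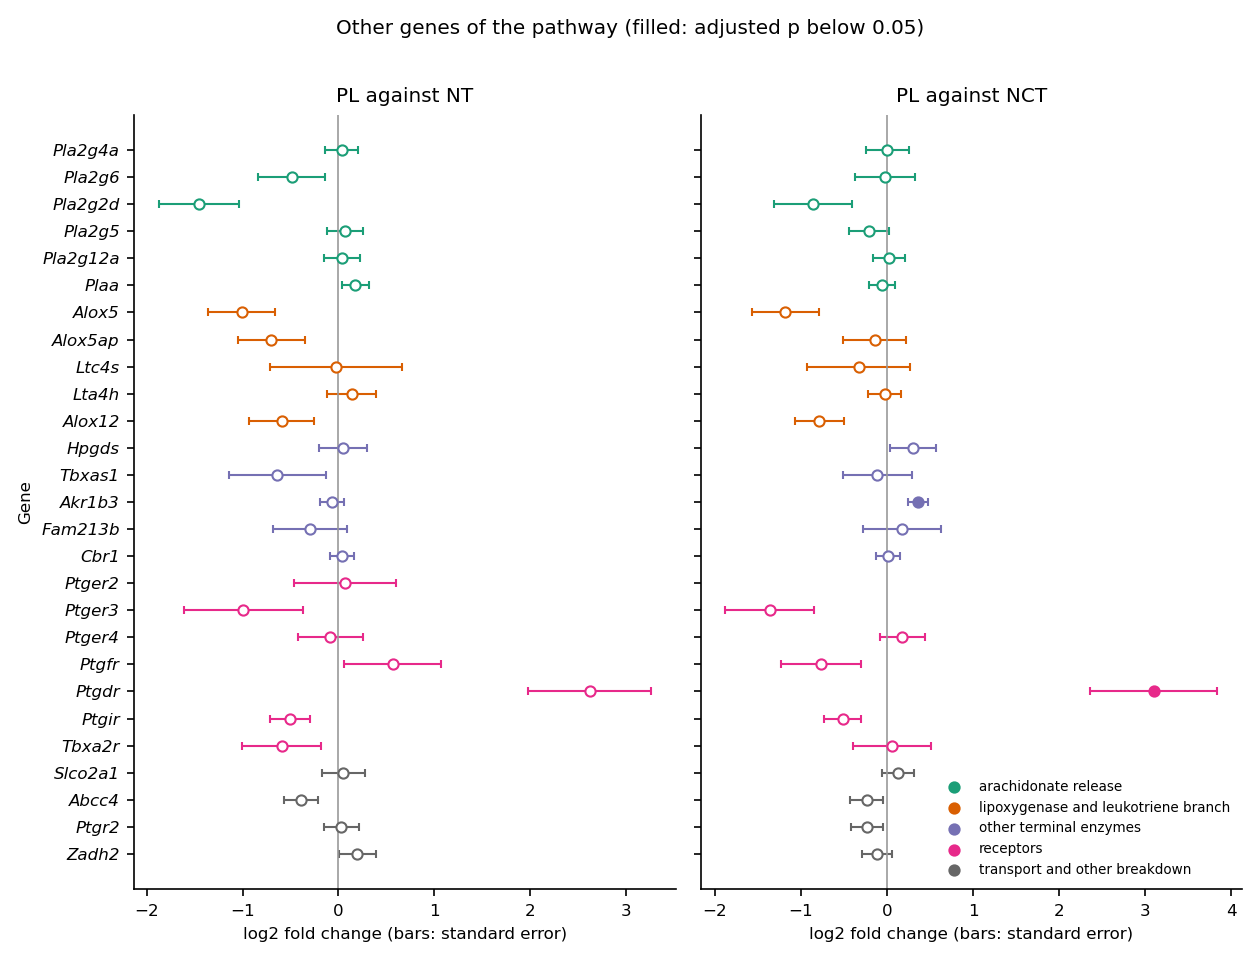
Log2 fold change ± SE of 27 genes of the wider pathway in PL against NT and PL against NCT (edgeR; Ptger2 was tested in PL against NT alone), ordered by list; filled points have an adjusted p under 0.05. Ptgdr and Akr1b3 are filled in PL against NCT, and no gene is filled in PL against NT.

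The genes whose levels ran most like a member's over the 27 libraries were taken as the 3 highest Spearman correlations among 8749 genes of at least 10 CPM. For Ptgs1 they were Col25a1 (0.93), Nptx1 (0.92) and Atp11a (0.91), and the same 3 led after each group's mean had been subtracted, at 0.75, 0.74 and 0.76. For Ptgds they were Tmod1 (0.89), Tril (0.87) and Penk (0.87), with Tmod1, Sobp and Penk leading at 0.82, 0.81 and 0.79 within groups. For Ptges they were Itga4 (0.82), Pitpnm2 (0.79) and Tnfrsf9 (0.77), with Itga4, Mt1 and Pitpnm2 leading at 0.83, 0.82 and 0.81 within groups. For Ptges3 they were Btbd1 (0.77), Ythdf2 (0.76) and Anxa7 (0.74), with Ythdf2, Pcnp and G3bp2 leading at 0.81, 0.80 and 0.75 within groups. These values describe 27 libraries that share groups and, for 9 mice, an animal.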

How the data were processed

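RNA of 27 microdissected mouse thyroid samples was made into QuantSeq 3′ libraries, per the labels' protocols. The authors deposited a table of unscaled counts per gene. STAR, featureCounts, DESeq2 and GRCm38 are named without roles or versions, per the submitters' processing notes. How annotation, strand and molecular identifiers were handled is not given in the sources used here, so reads of genes on opposite strands may not be told apart. Ptgs1 and Ptgis overlap such genes, with 1 count beside 16210 and 30 beside 1061. Of 54532 rows, 54495 were named from GENCODE M21 of GRCm38 by identifier, and the other 37 held 0.0043% of counts.

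Levels are CPM with TMM factors over all 27 libraries. Comparisons used edgeR 4.0.16 in R 4.3.3 (quasi-likelihood F test, robust dispersion, filterByExpr with a minimum count of 10, Benjamini-Hochberg over all tested genes, threshold 0.05) on the libraries compared, with mouse as a block in PL against NT, group as a covariate for sex, and a tissue by sex interaction. SE, which is approximate, was derived from each log2 fold change and its F value. The pairing rests on the mouse numbers in the labels. Deviations of paired libraries correlated at -0.000111 to 0.271, on average 0.157, and 6 of 9 pairs were above 0.1. No 2 libraries of a group matched within sampling noise (108 pairs, lowest chi-square per degree of freedom 13.0). The tests of different mice set a difference against the variation between mice. Those with mouse as a block set it against the variation of differences within mice.

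The members, the pathway lists and the marker lists were chosen with earlier results of these data known. Genes were named by rule: all 9 members, called pathway genes or else the smallest p of a list, sums and defining genes of marker lists, and the 3 most alike genes. Endothelial, pericyte, T cell, platelet and skeletal muscle lists had 0 called members in PL against NT, and so did the parathyroid, mast cell, fibroblast and adipocyte lists. Some of these genes did not pass the filter there. The genes tested were 1 of 3 parathyroid, 1 of 5 mast cell, 2 of 3 skeletal muscle, 3 of 4 platelet and red cell and 6 of 7 adipocyte markers. Alternatives were other size factors, DESeq2 1.42.0, other filters, leaving out libraries, females only, mouse number series and the block. The code was tested on simulated data. The median library total was 4622595 counts for NCT, 7220957 for NT and 6479022 for PL.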

Additional observations from a re-analysis of the deposited data

Results flagged for a closer look

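Each of the 9 genes was checked in each of the 3 groups of 9 libraries for a highest or lowest library that stands apart, by the gap to its neighbour as a share of the group's range, against Dixon's critical value. Chance gives about 1 such library in 20 checks, and 3 of 27 were found. Ptges2 was at 16.7 CPM in NCT library 9 against 10.7 CPM in the next, a gap of 0.569 of the range. Ptgis was at 11.7 CPM in the lesion of mouse 5 against 4.18 CPM in the next lesion, a gap of 0.644 of the range. Hpgd was at 13.1 CPM in NCT library 4 against 6.22 CPM in the next, a gap of 0.534 of the range.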

How the results depend on the processing

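PL against NT gave 445 calls, and 402 with no replicate block, which left the member calls as they were and moved Ptgdr to an adjusted p of 0.0353; in the interaction with sex it gave 0 calls, and Ptgs1 at 0.14. The 445 became 1285 by DESeq2's Wald test, 832 without a filter, 6 with females only, 95 without the Pth-rich mice and 46 without mice 7 to 9, and members called went from 1 to 4, 2, 0, 0 and 0. Leaving out 1 mouse gave 137 to 529 calls and 1 to 2 members, 5 mice moving the count by over 1.5 times (2, 3, 4, 7 and 8, to 257, 209, 240, 234 and 137) and Ptgs2 being called without mouse 5. NT against NCT (4 calls) gave 134 by the Wald test, 15 unfiltered, 1 with females only, 0 without Pth-rich libraries, 1 in the number series, 34 without NT libraries 7 to 9, and 0 to 12 with 1 library left out. PL against NCT (1433) gave 450 with females only, 345 in the number series, and 1126 to 1655 with 1 library left out. Those leave-outs called 2 to 3 members, Ptges3 being added in 3 of 18. Sex (27) gave 10 with NCT and PL, 17, 7 and 3 with NCT, NT or PL alone, 7 in the number series, 10 without Pth-rich libraries and 15 to 33 with 1 library left out, and Ptges was lost in the first 5. The interaction (0) gave 7 unfiltered. The number series of NCT library 4 rests on 1 of 2 labels that differ, and the series fits used the one that leaves it out. The alternatives on single groups, the series and leave-outs for sex were added after the data were seen.

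Signs turned only for genes that were not called. In PL against NT, Ptges was -0.011 with females, -0.20 without Pth-rich mice and -0.26 without mice 7 to 9, Hpgd 0.079 with females, and Ptgr1 0.11 and 0.39 in the last 2. Ptgdr was -0.18 with females and Ptgr1 0.46 in the series for NT against NCT, and Ptgr1 was 0.18 and Ptgr2 0.012 in the series for PL against NCT. By sex, Ptgis was -0.64 and Hpgd -0.29 with NCT and PL, Ptges3 -0.031 and Hpgd -0.14 with NCT, Ptges2 -0.38 and Ptgdr 0.066 with NT, Ptgs1 0.12, Ptges2 -0.062, Ptgis -1.43 and Hpgd -0.44 with PL, and Ptges2 -0.14, Ptges3 -0.0029 and Fam213b -0.13 in the series. With 1 mouse or library left out, PL against NT ran from -0.093 to 0.24 for Ptges and -0.28 to 0.079 for Ptgr1, NT against NCT from -0.0097 to 0.22 for Ptges and -0.13 to 0.0887 for Ptgr1, PL against NCT from -0.29 to 0.59 for Hpgd and -0.22 to 0.0031 for Ptgr1, and males against females from -0.18 to 0.19 for Ptges2, -0.0265 to 0.0885 for Ptges3 and -0.011 to 0.10 for Akr1b3. The cause was not tested, save that several of these alternatives hold fewer libraries. Depth limits Ptgs2, Hpgd and Ptgis most, the members with the lowest counts.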
